A study of Mus musculus with 3 samples.

Results

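Nabp1, Nabp2 and Ints3 encode the core of the sensor of single-strand DNA (SOSS) complex, and the entries of a deposited iCLIP list that carry these 3 gene names are described here. They were chosen by gene name, with every segment type kept. The rule gave 186 of 462392 listed positions and 417 of 814493 listed counts. Nabp1 held 161 of the 186 positions, Nabp2 held 2 and Ints3 held 23. The genes were picked because Nabp1 was already known to have a high 3′ UTR count in this list, so that count is a description and no test is made of it.

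The series used iCLIP, in which ultraviolet light fixes a protein to the RNA it touches and the end of each cDNA marks the contact. Total naive thymocytes of C57BL/6JBabr mice were irradiated with 300 mJ/cm2, and an antibody against Brf1/2 was used to recover RNA bound by ZFP36L1. Whether it also recovered RNA bound by ZFP36L2 cannot be told from the list. The DCKO group, cells with a double conditional knockout of Zfp36l1 and Zfp36l2, gave 1 library, and the WT group, cells without it, gave 2 libraries from separate experiments. The Cre driver, the age of the mice and the pooling of animals are not given in the labels. Each position has 1 value with no library column, and nothing states which libraries were pooled. DCKO and WT could therefore not be compared, the depth per library is unknown, and no value has a replicate error. Counts are also not adjusted for transcript abundance, which was not analysed here.

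NABP1 and NABP2 are small proteins with an OB fold that hold single-stranded DNA, and each can pair with the scaffold INTS3 and the small subunit INIP. The complex is known from human and mouse cells for its part in the response to DNA double-strand breaks, and INTS3 is also a subunit of Integrator, which cleaves nascent RNA. Thymocytes cut their own DNA when they rearrange antigen receptor genes. ZFP36L1 binds AU-rich elements in mRNA, with UAUUUA as a common core, and recruits enzymes that shorten the poly(A) tail.

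The marker genes of thymocytes had listed counts and those of other cell types had few. All 8 thymocyte markers were listed, with counts per gene from 11 to 3281 and a sum of 7717. The sums were 4 for B cells (3 of 4 markers listed, Cd79a at 0), 21 for myeloid cells (3 of 4, Csf1r at 0) and 8 for thymic epithelium (3 of 4, Foxn1 at 0). In bulk iCLIP samples, fewer cells of a type, less RNA per cell and less contact with the recovered protein cannot be told apart.

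The Nabp1 sequences under the groups of sites in its UTRs and introns are shown first, since the results below turn on them. Each line is a 30-nt window over a group of sites, read from the RefSeq copy of GRCm38 on the minus strand of chromosome 1 and written 5′ to 3′ as DNA. Capitals mark the AU-rich hexamer TATTTA in the first line and, in the others, the longest run of T within the window.
3′ UTR hexamer, chr1:51471163-51471192: cttagtgcactttTATTTAttcttaactgt
3′ UTR downstream, chr1:51471127-51471156: tttgtctcttacgggtttccTTTTatattt
5′ UTR, chr1:51478129-51478158: ttttgttttttggttttttgTTTTTTTTga
Intron before exon 6, chr1:51471409-51471438: tctgaaaatgaTTTTTTgtgttcttaggaa
Intron before exon 2, chr1:51477638-51477667: ttatctaacacaccTTTccttctccccttt
Intron after exon 2, chr1:51477433-51477462: ttggggtaggtgtgggTTTggccgacttcg
The hexamer window held 118 counts, the downstream 3′ UTR window 40, the 5′ UTR window 31, and the intron windows 8, 16 and 9 in the order shown. The AU-rich hexamer is present in the first window only, whereas the 5′ UTR window is 80% T with no A except the last base.

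Counts of the complex were concentrated in Nabp1, and within Nabp1 in its 3′ UTR. Nabp1 (ENSMUSG00000026107), the gene of the SOSS-B2 subunit, lies on the minus strand of chromosome 1 (chr1:51465862-51478425, GRCm38, with the gene span from GENCODE vM21). It had 379 listed counts, more than 98.2% of 12541 protein-coding gene names in the list. Of these, 248 counts (65.4%) at 88 positions were labelled 3′ UTR, 77 counts (20.3%) at 44 positions intron, 44 counts (11.6%) at 24 positions 5′ UTR and 10 counts (2.64%) at 5 positions coding. Per kb of the main transcript Nabp1-201, this was 141 counts in the 3′ UTR, 90.9 in the 5′ UTR, 16.8 in coding sequence and 12.7 in introns. The 3′ UTR density was 11.1 times that of the introns (exact 95% counting interval 8.59 to 14.6). Of the 44 positions labelled intron, 25 lie in exons of other annotated transcripts, and their counts are kept as intron in every ratio given here.

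Nabp2 (ENSMUSG00000025374), the gene of the SOSS-B1 subunit on chromosome 10 (chr10:128401395-128411492, minus strand), had 2 positions with 3 counts, both in introns. A count of 1 was listed at position 128403378 and a count of 2 at position 128407738. Its 3′ UTR of 329 nt, its coding sequence and its 5′ UTR had no listed position, and the 0 counts in the 3′ UTR allow up to 3 counts, or 9.12 per kb. Against that limit of 3 counts, the Nabp1 3′ UTR had 15.5 times the counts per kb, with no allowance for error in the Nabp1 count. In introns, Nabp1 had 29.4 times the counts per kb of Nabp2 (12.7 against 0.431, exact 95% counting interval of the ratio 9.7 to 146). The difference between these paralogs was therefore present at positions labelled intron as well as in the 3′ UTR.

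Ints3 (ENSMUSG00000027933), the gene of the scaffold subunit on chromosome 3 (chr3:90391388-90433622, minus strand), had 35 counts at 23 positions, more than 69.5% of gene names. Introns held 29 of these counts at 19 positions and coding sequence held 5 at 3 positions. The 3′ UTR of 632 nt had 1 position with a count of 1, at 90391789. The highest count at any Ints3 position was 2, and all 23 positions had a count of 1 or 2. Nabp1 had 89.2 times the counts per kb of Ints3 in the 3′ UTR (exact 95% counting interval 15.9 to 3540) and 16.5 times in introns (10.7 to 26.3). The 3′ UTR density of Ints3 was 2.06 times that of its introns, with an interval (0.0505 to 12.4) that overlaps that of Nabp1. These intervals cover counting error only, since neighbouring positions of a transcript and copies made by PCR are not independent. They also make no allowance for the choice of Nabp1 by its 3′ UTR count.

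**Figure D1:**
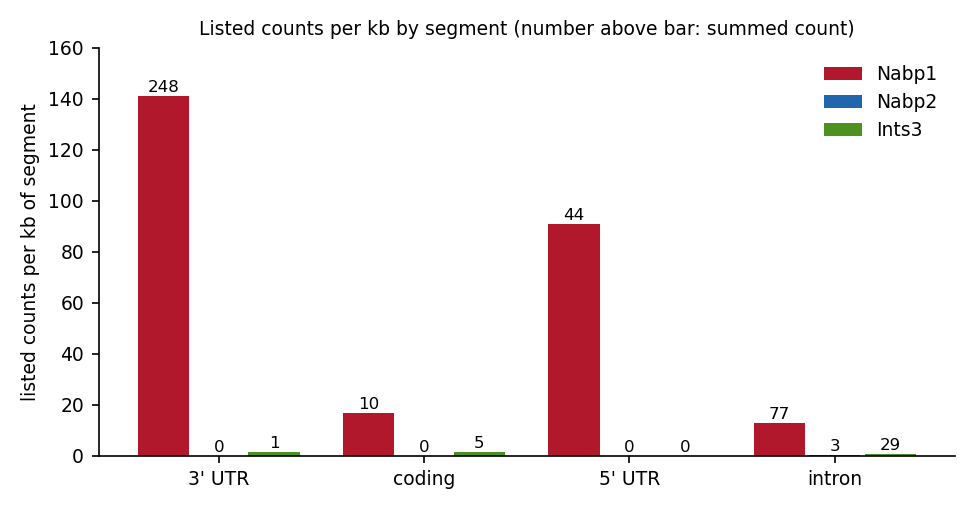
Listed counts per kb (vertical axis) for the 3′ UTR, coding sequence, 5′ UTR and introns of Nabp1, Nabp2 and Ints3 in the pooled list, with the summed count above each bar. Nabp1 stands at 141 counts per kb in the 3′ UTR and 90.9 in the 5′ UTR, and Nabp2 and Ints3 stay below 2 in every segment.

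The sequence of the 3′ UTRs differed among the members. The Nabp1 3′ UTR is 1757 nt long and 66.2% A and T, with 1 copy of TATTTA, 4 of ATTTA (the TATTTA copy included) and 5 of TTTTTT counted with overlaps on the transcript strand. The 3′ UTRs of Nabp2 (49.2% A and T) and Ints3 (45.3%) hold none of the 3 patterns. Among 11511 protein-coding genes with a listed position and a matched 3′ UTR, 48.5% had at least 1 TATTTA and 57.4% had TTTTTT. Among the 1634 genes whose 3′ UTR was within 20% of the Nabp1 length these shares were 63.6% and 75.7%, so having 1 copy of the hexamer is common at that length.

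A site is a listed position with an authors' FDR below 0.05. Nabp1 had 43 sites among its 88 3′ UTR positions (48.9%), where 37.8% of all positions labelled 3′ UTR passed. The 43 sites held 167 counts, which placed Nabp1 18th of the 2222 genes with a 3′ UTR site, and 31st by the number of sites. The largest sum of counts within 15 nt of a position was 119, which ranked 13th. Per kb of 3′ UTR, Nabp1 had 95.0 site counts against a median of 4.95 over 2088 genes, rank 55, and it ranked 19th of the 50 genes with at least 100 site counts. These ranks include the values for which the gene was chosen.

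All 43 sites formed a group of 85 nt, at chr1:51471118-51471202, with no gap over 15 nt. It began 43 nt and ended 127 nt after the stop codon and held 67.3% of the listed 3′ UTR counts (95% Wilson interval 61.3 to 72.9). The shortest stretch with at least 50% of the 3′ UTR counts was 35 nt in Nabp1, against a median of 217 nt over the 109 genes with at least 100 such counts, rank 23. Of the 43 sites, 33 lay in sequence that is soft-masked in the reference, where short repeats and low-complexity runs are marked.

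The strongest positions surrounded the hexamer TATTTA, which lies 66 to 71 nt after the stop codon (chr1:51471174-51471179). The highest count, 16, was at position 51471183, 4 nt before the hexamer, and a count of 12 stood at 51471185, 6 nt before it. After the hexamer, counts of 11 and 10 were listed at 51471173 and 51471169. All 6 bases of the hexamer were sites themselves, with 6, 8, 2, 3, 7 and 9 counts from its first base to its last. The 21 sites here ran from 55 to 76 nt after the stop codon, so the counts were spread over neighbouring bases and did not stand at 1 base.

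The whole hexamer lay within 20 nt of 21 of the 43 sites, which held 118 of the 167 site counts, or 70.7% (95% Wilson interval 63.4 to 77.0). Of these 118 counts, 48 lay upstream of the hexamer, 35 in it and 35 downstream. For comparison, 36 of the 1757 positions of the 3′ UTR (2.05%) have the whole hexamer within 20 nt. Sites passed through high sums of nearby counts, so the 70.7% and the 2.05% rest on unlike sets of positions. Over all listed positions of this 3′ UTR, passed or not, the share near the hexamer was 47.6% of 248 counts. Among 161 genes with at least 20 3′ UTR sites, the median share of site counts near TATTTA was 25.4%, and Nabp1 ranked 28th.

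A weaker shoulder followed downstream of the hexamer. Its 21 sites ran from 89 to 127 nt after the stop codon, and no count there was over 6. Most of this stretch is shown in the second line above, which has short runs of T and holds no TATTTA. The run of T that ends this line continues past it, at least to position 51471125. The highest counts were 6 at position 51471156 and 5 at 51471127.

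Outside this group, the remaining 45 positions of the 3′ UTR held 81 counts and none passed as a site. They were scattered from 27 to 1708 nt after the stop codon, with a highest count of 5. The site with the highest FDR had 0.0317 (12 counts within 15 nt), and the lowest FDR among positions that did not pass was 0.115 (10 counts within 15 nt). The largest of the distal groups had 12 counts at 8 positions, 1225 to 1266 nt after the stop codon.

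**Figure D2:**
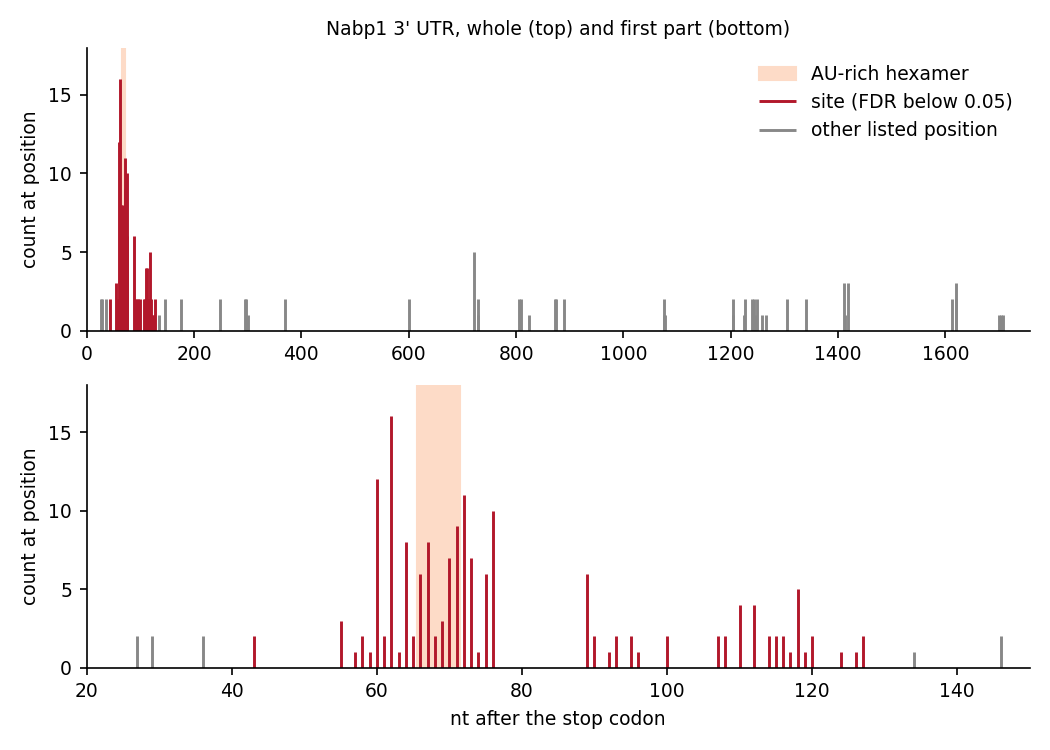
Counts at listed positions of the Nabp1 3′ UTR (vertical axis) by distance after the stop codon in nt (horizontal axis), for the whole 3′ UTR above and its first part below. Red lines are sites with an authors' FDR below 0.05, grey lines are other listed positions, and the shaded band is the hexamer at 66 to 71 nt. The sites lie between 43 and 127 nt, and no count farther downstream exceeds 5.

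Annotated Nabp1 transcripts differ in where they end, but share the hexamer. GENCODE vM21 lists 10 transcripts, of which 8 have a coding sequence, and all 8 use the same stop codon and contain the hexamer. Nabp1-202 and Nabp1-206 end 103 and 116 nt after the stop codon, within the group of sites, and 31 and 13 of the 167 site counts lay past those ends. The list does not tell which transcript a count came from.

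Nabp1 also carried sites in its 5′ UTR, which few genes did. Of its 24 positions in the 5′ UTR 15 were sites, with 32 counts, against 21.1% of all positions with this label that passed. At least 1 such site was found for 142 of 12541 gene names (1.13%), where 1440 names had any listed 5′ UTR position. Among the 142 genes, Nabp1 ranked 6th by site counts and 4th by number of sites. The sites lay at chr1:51478127-51478157, 212 to 242 nt before the start codon, and no count there was over 4. Of the 15 sites 12 were at a T, and these held 90.6% of the counts.

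The 5′ UTR sites had no TATTTA within 20 nt. Of these sites, 14 lay in the T-rich window shown in the third line above, and the other, at 51478127, lay just past its end. All 15 were in soft-masked sequence. Over all genes, 64.0% of 623 sites in 5′ UTRs were at a T, and 8.03% were near TATTTA. The run lies in an exon of 5 of the 10 transcripts, Nabp1-201 among them, and is outside the exons of the others.

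The intron sites of Nabp1 lay near exon 2 and exon 6, but they held less than 50% of its intron counts. Of 44 intron positions 13 were sites (29.5%), against 28.5% of all intron positions of protein-coding genes, a share near the background. The 13 sites held 33 of the 77 intron counts and fell into 3 groups. The group before exon 2 had 5 sites and 16 counts, 32 to 50 nt upstream of the exon, with counts of 5 at neighbouring positions 51477648 and 51477649. The group before exon 6, the last exon, had 4 sites and 8 counts, 7 to 14 nt upstream of the exon, with a highest count of 3. The third group had 4 sites and 9 counts, 22 to 43 nt after exon 2, with a highest count of 4.

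The groups before exons lie in pyrimidine-rich sequence, as 3′ splice sites usually do. All 4 sites before exon 6 were at a T, in the run shown above except for 51471418, which lay just past it. Of the 5 before exon 2, the strongest were at a T and a C. The sites before exon 2 also lie in exons of Nabp1-204, Nabp1-205 and Nabp1-208, and those after exon 2 in Nabp1-208, a retained-intron transcript. The intron label thus depends on the transcript for 9 of the 13 sites. None of the 13 was near TATTTA.

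In coding sequence 2 of 5 positions passed (40.0%, against 19.4% of all coding positions), with 4 counts at positions 51472341 and 51472343 of exon 5. All 5 coding positions had a count of 2.

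**Figure D3:**
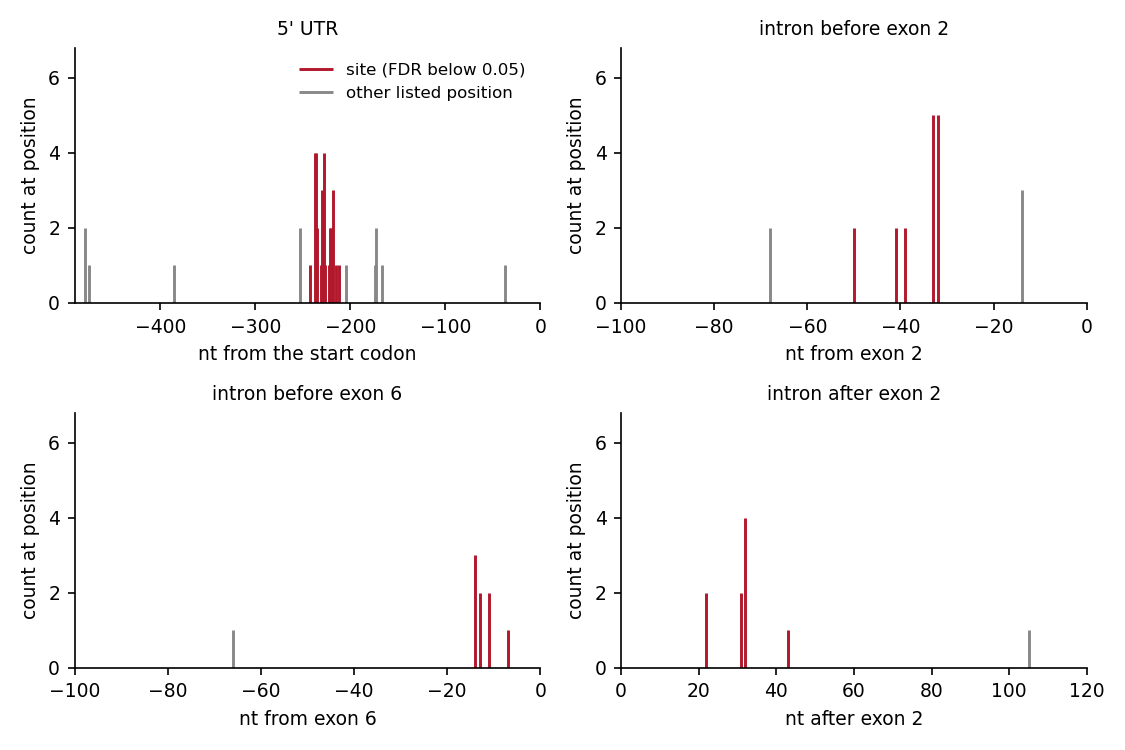
Counts at listed Nabp1 positions (vertical axis) by distance in nt from the start codon, from exon 2, from exon 6 and after exon 2 (horizontal axes, 1 panel each). Red lines are sites and grey lines other listed positions. The 5′ UTR sites lie 212 to 242 nt before the start codon, and the intron sites lie within 50 nt of exon 2 or exon 6.

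The few sites of Nabp2 and Ints3 had low counts. All 3 members had at least 1 intron site, as did 55.6% of protein-coding gene names. The Nabp2 position with a count of 2 passed as a site with an FDR listed at 0, while 45 positions of the Nabp1 3′ UTR with up to 10 counts within 15 nt did not. Equal FDR values thus stood for different counts in different genes and segments. Ints3 had 4 sites among its 19 intron positions (21.1%), at 90393878, 90393879, 90401752 and 90401767, with 6 counts in all and an FDR of 0.0179 each. None of these sites had TATTTA within 20 nt, and none of the 4 Ints3 positions in coding sequence and the 3′ UTR passed. Counts of 3 or more stood at 19.3% of Nabp1 positions, at 0 of 2 in Nabp2 and at 0 of 23 in Ints3, and at 5.45% of all listed positions.

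Genes related to the complex by function were counted in the same way. Of 34 genes in 4 lists, all had a listed position. By the authors' label, 4 had a 3′ UTR site (11.8%), against 17.7% of all protein-coding gene names. The difference between these shares was not tested. The median summed count of the 34 genes was 31, against 13 over all names. TATTTA was present in the 3′ UTR of 14 of the 34.

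Among the partners of the complex, Inip, which encodes its small subunit, had 3 sites with 6 counts among 9 listed 3′ UTR counts (3.3 per kb). None of these sites was near TATTTA, although its 3′ UTR holds 2 copies. Ints6, a further Integrator subunit that binds INTS3, had 201 listed counts, 197 of them in introns, and 0 labelled 3′ UTR. Inside its annotated 3′ UTR of 7777 nt, which holds 3 copies of TATTTA, 7 positions with 11 counts carried other labels, and none passed. Of 12 other Integrator subunits, Ints7 alone had a 3′ UTR site by the authors' label, with 2 sites and 4 counts, none near TATTTA. Inside its annotated 3′ UTR, whatever the label, Ints7 had 4 sites.

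Of 10 genes of single-strand binding proteins outside the complex, 2 had a 3′ UTR site by the authors' label. These were Pot1a and Pot1b, paralogs that cap telomere ends. Inside annotated 3′ UTRs, whatever the label, Ssbp1 had 1 site and Pot1b had 2. By the authors' label, Pot1a had 5 sites with 8 counts and Pot1b had 1 site with 4 counts. All 6 of these Pot1a and Pot1b sites were near TATTTA. Their windows, with the hexamer in capitals, are on the minus strands of chromosomes 6 and 17 (GRCm38).
Pot1a 3′ UTR, chr6:25744417-25744446: cagaaaaatattttattgtTATTTAtgctg
Pot1b 3′ UTR, chr17:55653239-55653268: acagaaagacattgtattgtTATTTAtacc
The windows are alike around the hexamer, and each 3′ UTR has 1 copy, as Nabp1 does. Per kb of 3′ UTR they had 9.48 and 2.75 site counts, against 95.0 in Nabp1. How reads were placed between these paralogs was not tested, so the split of counts between them is uncertain. Of the 9 break repair factors, 0 had a 3′ UTR site, and their listed 3′ UTR counts ranged from 0 to 6.

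**Figure D4:**
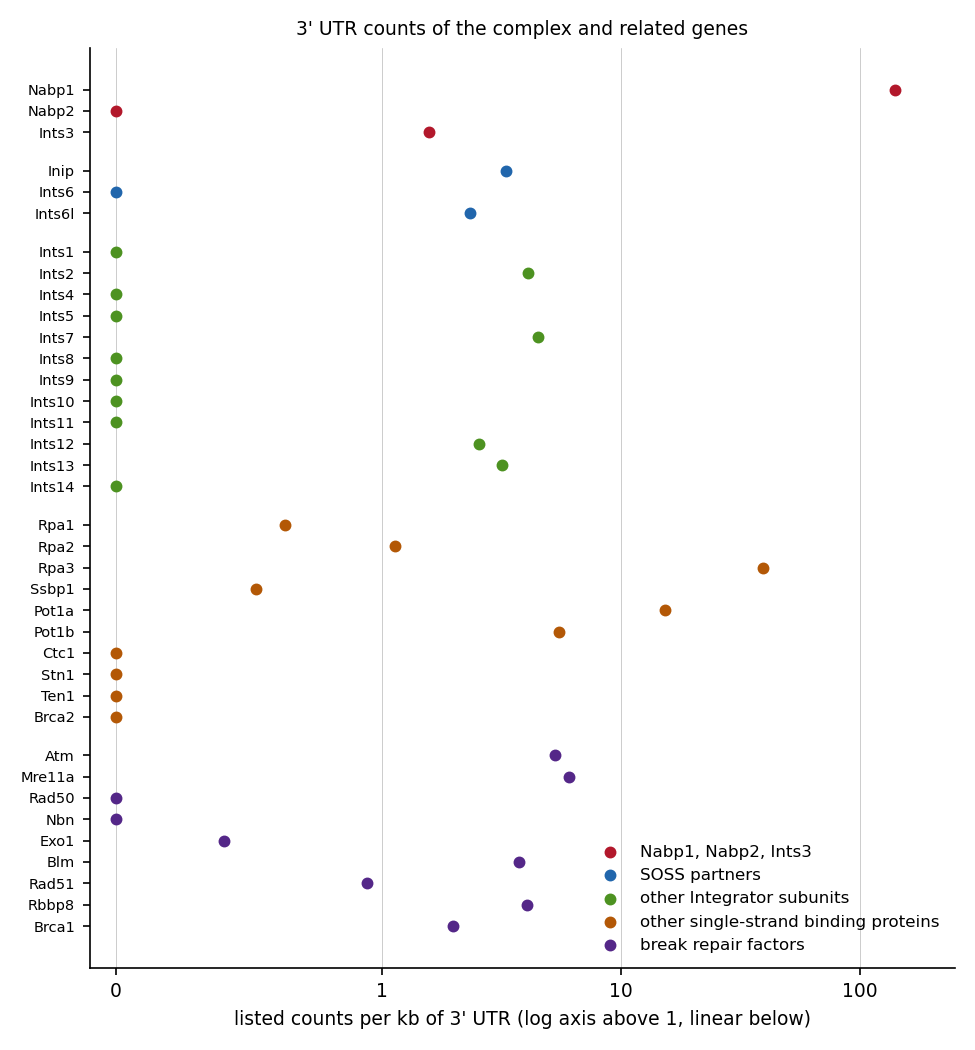
Listed counts per kb of 3′ UTR (horizontal axis, logarithmic above 1 and linear below) for Nabp1, Nabp2, Ints3 and the 34 genes of 4 related lists, 1 point per gene. Nabp1 lies at 141, and the next highest is Rpa3 at 39.3, from 9 counts in a short 3′ UTR.

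The genes most like Nabp1 by 4 measures of their 3′ UTR signal were Notch1, Ets2 and Ago2. The measures were the number of 3′ UTR sites, their summed count, the share of those counts near TATTTA and the share of the gene's listed counts labelled 3′ UTR, over 161 genes of the pooled list. Notch1, a receptor of T cell commitment, was nearest, at a scaled distance of 0.739, with 51 sites, 223 counts, 83.0% near TATTTA and 69.8% in the 3′ UTR. Ets2, a transcription factor, followed at 0.846 with 44 sites, 117 counts, 54.7% and 55.2%. Ago2, a protein of microRNA silencing, was at 0.858 with 37 sites, 110 counts, 81.8% and 58.1%. The values of Nabp1 were 43 sites, 167 counts, 70.7% and 65.4%.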

How the data were processed

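The authors deposited 1 list of crosslink positions from iCLIP libraries, 1 of DCKO and 2 of WT thymocytes. The submitters' processing notes name Bowtie and GRCm38, with no further steps given. Per the file headers, each position has a count with the strand as its sign, used here as an unsigned score, the sum of counts within 15 nt (recomputed as the same value at 99.6% of positions), a p-value and an FDR. The deposited p-value was not used, and the deposited FDR, which exceeds 1 at some positions, was used as a score with a threshold of 0.05. Positions were taken to count from 0: listed numbers 1 below a coding exon's start were labelled coding in 808 of 812 cases, and those equal to its end in 15 of 158. Printed positions count from 1.

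Segments follow the authors' label. Lengths and sequence come from GENCODE vM21 and the RefSeq copy of GRCm38.p6, with the APPRIS principal transcript of longest coding sequence for each gene. TATTTA had to lie whole within 20 nt of a position on the transcript strand. Sites were grouped across gaps of at most 15 nt. Summaries used Python 3.11.15, pandas 2.3.3 and pysam 0.24.0. No test between groups was possible.

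Named were the 3 members, list genes with a 3′ UTR site, Inip and Ints6, and the 3 genes nearest to Nabp1 among those with at least 20 3′ UTR sites. Rpa3, Ssbp1 and marker genes at 0 were named after their values were seen. The members and lists were chosen with earlier results of these data known. Other FDR thresholds, windows, patterns and count minimums were tried as alternatives. The search for the hexamer near a position was tested on simulated positions. A further marker list is not reported here.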

Additional observations from a re-analysis of the deposited data

How the results depend on the processing

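When every listed position was used instead of sites, Nabp1 had 88 positions in its 3′ UTR, and Nabp2 had 2 and Ints3 had 23 over all segments. A 3′ UTR position was then found for 6 other SOSS and Integrator genes, 2 of 3 SOSS partners and 4 of 12 other Integrator subunits. Over all protein-coding gene names, 5752 of 12541 had one. The share of Nabp1 3′ UTR counts near TATTTA was 47.6%. This setting takes in positions that did not pass, so it holds more of them by construction. That share was 59.3% within 10 nt, 92.2% within 50 nt, and 48.8% when each site weighed the same, each against 70.7%. It was 71.5% with an FDR below 0.01, 72.6% with counts of 2 or more, and 70.7% with ATTTA as the pattern or with annotated 3′ UTRs. Ints3 had 0 sites with an FDR below 0.01 and 2 with a count of 2 or more, against 4. Nabp1 had 42 3′ UTR sites with an FDR below 0.01, 33 with counts of 2 or more and 43 with annotated 3′ UTRs, against 43. The Nabp2 count and the count of other SOSS and Integrator genes were the same as reported wherever these settings were run. No paired analysis was possible because the list has no library column, and for the same reason no replicate could be left out. The pooled list limits every value: depth per library is unknown, intervals cover counting error only, and a low count may reflect low abundance of a transcript.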

Other observations

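Positions outside the labelled gene also fell on the Nabp1 strand. Between positions 51466028 and 51469378 of chromosome 1, inside the GENCODE vM21 span of Nabp1, 13 minus-strand positions with 17 counts were labelled intergenic by the authors. Of these, 8 lay in exons of longer annotated transcripts. The transcripts that reach there, Nabp1-204, Nabp1-209 and Nabp1-210, are annotated as nonsense-mediated decay. The farthest ends 5383 nt after the stop codon in genomic distance. Of the 13 positions, 8 had an FDR below 0.05, against 30.7% of all listed positions, and no count was over 2. The share that passed among positions labelled intergenic was not counted. The plus strand of the gene had 0 listed positions.

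At Nabp1 positions a count of 2 was more frequent than a count of 1, with 72 and 58 of 161 positions. Over the whole list the shares were 44.0% with a count of 2 and 50.5% with a count of 1, and in Ints3 there were 12 and 11 of 23 positions. In the Nabp1 3′ UTR, 42 positions had a count of 2, 25 had a count of 1 and 21 had 3 or more.

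A T stood at 28 of the 43 Nabp1 3′ UTR sites (65.1%), against 65.8% of all 3′ UTR sites and 36.3% of the bases of this 3′ UTR. The 2 highest counts of the 3′ UTR were both at a C.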
